A study of Homo sapiens with 6 samples.

Results

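The genes described here are 39 human genes of glycolysis, lactate handling and the response to low oxygen. They were chosen by name, from their known roles, and each was read by the probe set naming that gene alone with the highest mean signal. Of the 39, 36 were matched to such a probe set, out of 19775 genes named by the array, and all 36 were bright enough to be tested. SLC16A1, SLC16A3 and CA9 were not analysed here. The arrays fall into 2 groups of 3. In the first, cells labelled HepG2, a line from a human liver tumour, received an siRNA against RNF43, a membrane ubiquitin ligase that restrains Wnt signalling. In the other, the same cells received a negative control siRNA. All 6 samples were transfected with the same lipid reagent in the same medium, RNA was taken 48 h later, and no oxygen level or glucose change is named in the labels. The labels call the arrays of a group biological replicates without naming separate cultures. The p-values therefore weigh each difference only against the scatter among these arrays, and some of that scatter may be technical. The guide strands of both siRNAs are shown because they define the groups, with bases 2 to 8, the seed, in capitals.
RNF43 siRNA antisense strand: aUAAUAGCuuucuguucugtt
control siRNA antisense strand: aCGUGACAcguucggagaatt

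Glycolysis splits glucose into pyruvate in the cytosol. Pyruvate is then reduced to lactate by lactate dehydrogenase or enters the mitochondria through the pyruvate dehydrogenase complex, which the PDK kinases switch off. Hypoxia-inducible factor, HIF, pairs an oxygen-sensitive alpha subunit with ARNT, and it raises many glycolytic genes together with genes of blood vessel growth and mitochondrial clearance. Prolyl hydroxylases of the EGLN family mark the alpha subunits for destruction when oxygen is present, so HIF activity is set largely at the protein level. Tumour cells of the liver often use the HK2, ALDOA and PKM forms of glycolytic enzymes in place of the adult liver forms.

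Before the results, 2 labels were checked against the data. RNF43, the targeted gene, did not follow its label. It read 8.19, 8.22 and 8.41 on the log2 scale on the arrays labelled RNF43 siRNA, against 7.65, 7.79 and 7.45 on the control siRNA arrays. RNF43 was therefore 1.56-fold higher where its siRNA was named (log2 difference 0.64, SE 0.14, limma adjusted p = 0.0098). Directions below compare arrays by label, RNF43 siRNA over control siRNA, and a loss of RNF43 mRNA was not seen. The cell line label was checked with markers. Of 12 matched markers of liver cells, 10 lay under the brightness filter, among them albumin, ALB, at 4.24 ± 0.07 on the arrays labelled RNF43 siRNA and 4.19 ± 0.32 on the control siRNA arrays (SD, n = 3 each). The 2 liver markers above the filter, CEBPA and AFP, went opposite ways. CEBPA read 8.76, 9.11 and 9.15 on the arrays labelled RNF43 siRNA, against 8.64, 8.43 and 8.43 on the control siRNA arrays. AFP read 6.12, 6.45 and 6.65 on the arrays labelled RNF43 siRNA, against 6.98, 7.13 and 6.91 on the control siRNA arrays. CEBPA rose past the threshold in limma, and AFP did not pass. LUM, a collagen-binding proteoglycan of fibroblasts, stood at 13.17 ± 0.11 on the arrays labelled RNF43 siRNA and 13.36 ± 0.06 on the control siRNA arrays (SD, n = 3 each). Most hepatocyte markers that the label calls for were thus under the filter, while some fibroblast markers were bright. The summed linear signal of 10 fibroblast markers was 12507.5 to 13639.9 on the arrays labelled RNF43 siRNA and 15946.2 to 16060.2 on the control siRNA arrays, without overlap. Of the 6 tested ones, 4 fell, beside 11.1% of all tested genes. The groups did not overlap for 5 of the 6, beside 38.9% of all tested genes. LUM was the brightest of these markers and weighs most in the sum. COL1A2, PDGFRA, PDGFRB and THY1 lay under the filter. For 7 endothelial markers, of which 1 passed the filter, the sum was 262 to 288 on the arrays labelled RNF43 siRNA and 210 to 221 on the control siRNA arrays. For 5 blood markers, of which 1 passed, it was 196 to 294 on the arrays labelled RNF43 siRNA and 176 to 284 on the control siRNA arrays. No matched marker was at 0 on any array, and the part of these shifts in the results below was not tested.

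The comparison asks how these transcripts differ 48 h after transfection with the RNF43 siRNA. The genes did not move together. On the arrays labelled RNF43 siRNA, ENO2, BNIP3L, HIF1A, HK1, NDRG1, PKM and ALDOC rose and PFKL, ARNT, PFKFB4, VEGFA and PDK1 fell. That is 12 of 36 genes past an adjusted p of 0.05 in limma, fitted over all 11853 tested genes, of which 22.6% passed. The 7 risen genes stand beside a background of 11.5% and the 5 fallen ones beside 11.1%. The groups did not overlap for 13 of the 36 genes, with the RNF43 siRNA side above in 8 and below in 5, beside 38.9% of all tested genes. The median log2 difference was 0.03 over the 36 genes, beside -0.0028 over all tested genes, and the median size of a difference was 0.158, beside 0.190 over all tested genes. In a bulk sample, fewer cells of a type and less RNA per cell cannot be told apart.

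**Figure D1:**
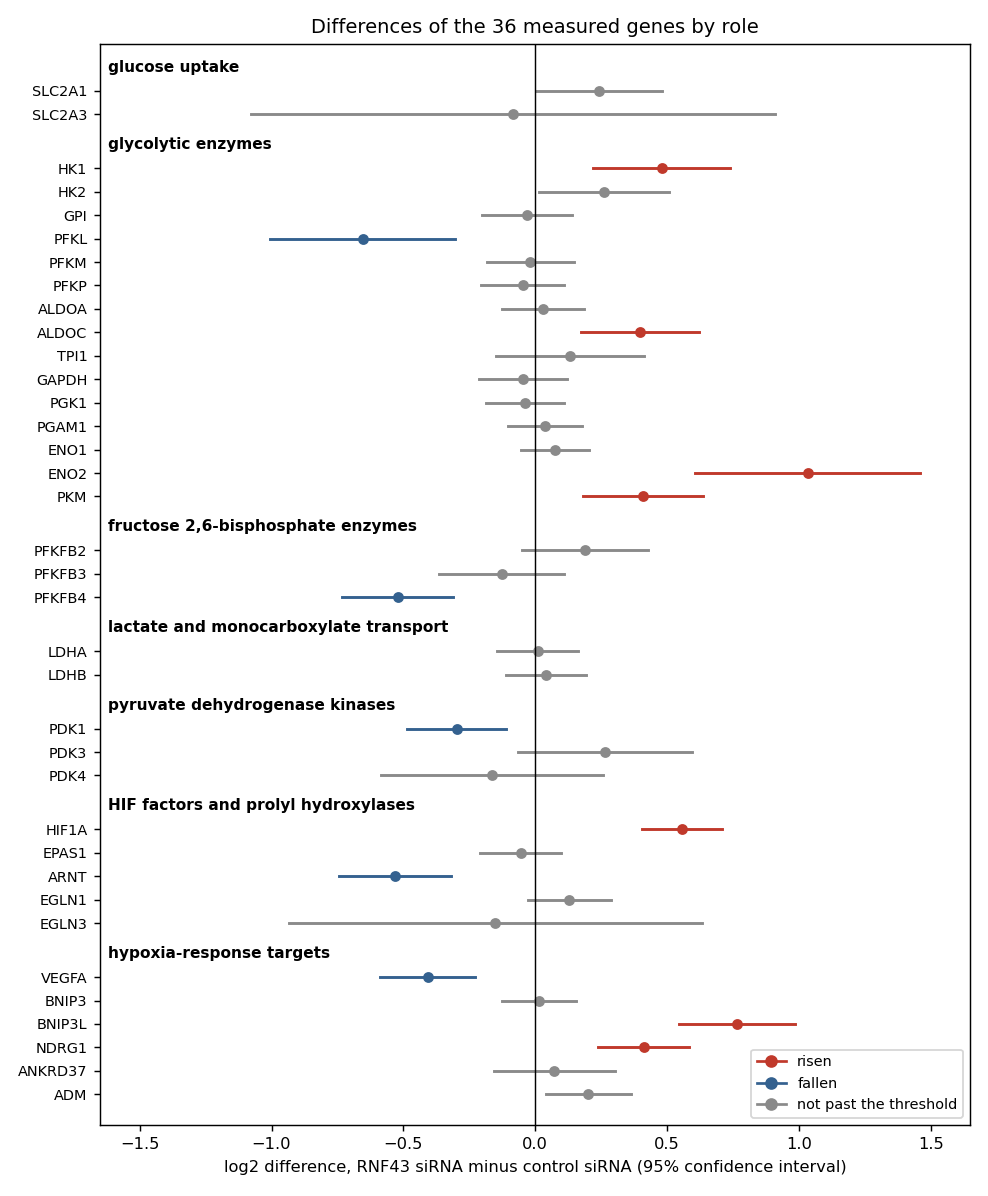
Log2 difference, RNF43 siRNA minus control siRNA, for the 36 tested genes in order of their roles, with 95% confidence intervals from limma (3 arrays per group). Risen genes (red) and fallen genes (blue) occur side by side within a role, and the widest intervals belong to the dim genes SLC2A3 and EGLN3.

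HIF1A encodes the best known oxygen-sensitive alpha subunit of HIF. Its log2 signal was 13.95, 13.78 and 13.76 on the arrays labelled RNF43 siRNA, against 13.24, 13.32 and 13.26 on the control siRNA arrays. HIF1A rose 1.47-fold, a log2 difference of 0.56 (SE 0.07, adjusted p = 0.000306 in limma), with the groups well apart. ARNT, the stable partner that HIF alpha subunits need to bind DNA, went the other way. It read 9.35, 9.44 and 9.40 on the arrays labelled RNF43 siRNA, against 9.93, 10.07 and 9.78 on the control siRNA arrays. ARNT fell 1.44-fold, a log2 difference of -0.53 (SE 0.10, adjusted p = 0.0032 in limma), and the groups did not overlap. EPAS1, the alpha subunit also called HIF-2 alpha, averaged 13.13 ± 0.09 on the arrays labelled RNF43 siRNA and 13.18 ± 0.08 on the control siRNA arrays (SD, n = 3 each), with a 95% interval of the difference of -0.21 to 0.10. The prolyl hydroxylases EGLN1 and EGLN3 did not pass the test. EGLN1 differed by 0.13 (adjusted p = 0.228). EGLN3, which is itself a HIF target in many cells, was dim, and its interval of -0.93 to 0.63 left its direction undetermined.

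**Figure D2:**
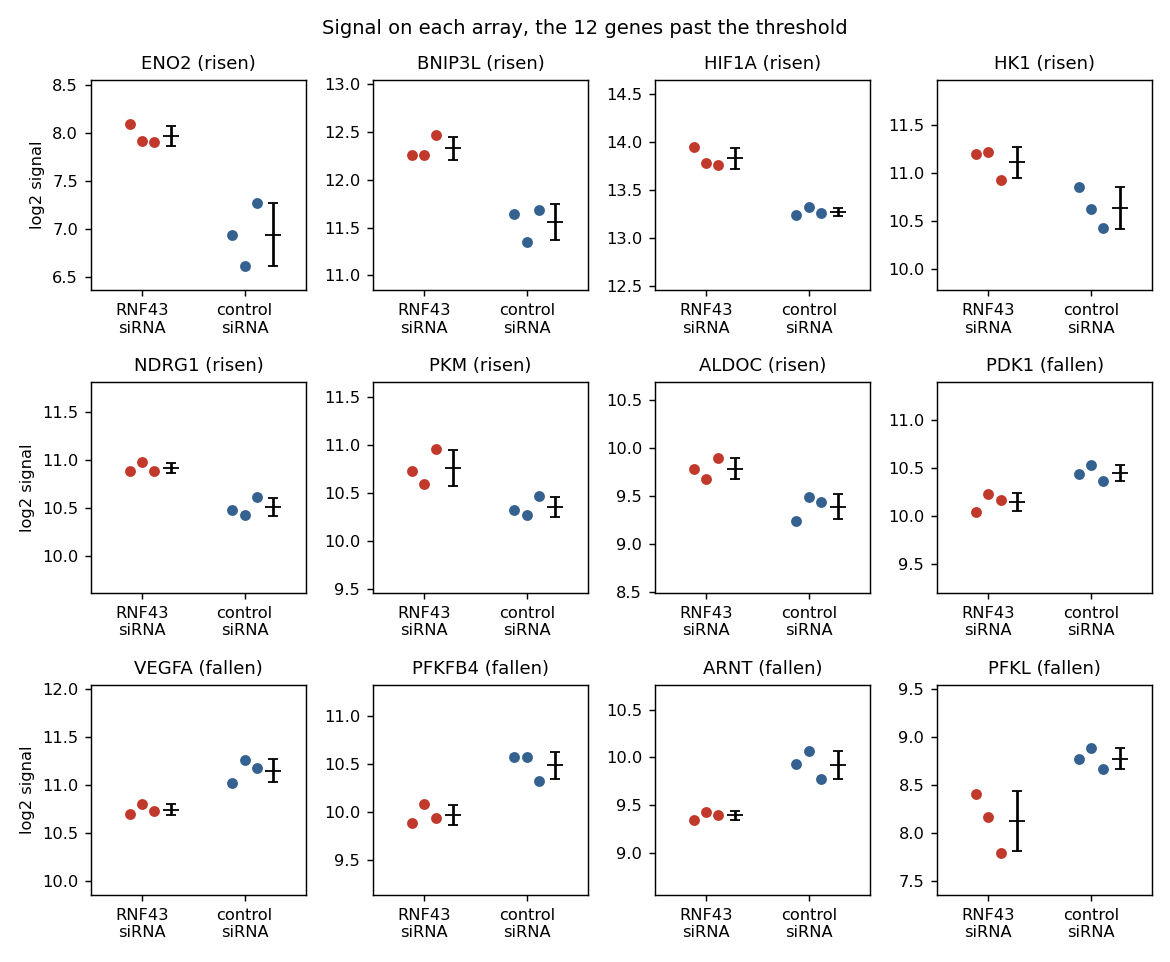
Log2 signal on each array for the 12 genes past the threshold, RNF43 siRNA arrays (red) left of control siRNA arrays (blue), with mean and SD (n = 3) beside the points. Each panel has its own range of signal, and in each the groups do not overlap.

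Among 6 tested targets of the hypoxia response outside glycolysis, 2 rose, 1 fell and 3 did not pass. The share changed was 50% of these few genes, beside 22.6% of all tested genes (11.5% risen and 11.1% fallen). BNIP3L, also called NIX, is a receptor on the mitochondrial outer membrane that delivers mitochondria to autophagy. Its log2 signal was 12.26, 12.26 and 12.46 on the arrays labelled RNF43 siRNA, against 11.65, 11.35 and 11.69 on the control siRNA arrays. BNIP3L rose 1.70-fold, a log2 difference of 0.77 (SE 0.10, adjusted p = 0.000434 in limma). Its close relative BNIP3 gave 12.31 ± 0.06 on the arrays labelled RNF43 siRNA and 12.30 ± 0.02 on the control siRNA arrays (SD, n = 3 each), with an interval of the difference of -0.12 to 0.15. The other BNIP3 probe set had the opposite sign, at -0.25 with an interval of -0.49 to -0.0004 (limma adjusted p = 0.161 over probe sets). NDRG1, a stress-induced gene often used as a marker of low oxygen, read 10.89, 10.98 and 10.89 on the arrays labelled RNF43 siRNA, against 10.48, 10.43 and 10.61 on the control siRNA arrays. NDRG1 rose 1.33-fold, a log2 difference of 0.41 (SE 0.08, adjusted p = 0.00402 in limma), with no overlap.

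VEGFA, the growth factor that draws in blood vessels and a standard HIF target, was lower. Its log2 signal was 10.70, 10.80 and 10.73 on the arrays labelled RNF43 siRNA, against 11.02, 11.25 and 11.17 on the control siRNA arrays. VEGFA fell 1.33-fold, a log2 difference of -0.41 (SE 0.08, adjusted p = 0.00511 in limma), and all values of the arrays labelled RNF43 siRNA lay under all control siRNA values. ADM, the gene of the vessel-relaxing peptide adrenomedullin, differed by 0.20 (adjusted p = 0.0748), and without control siRNA replicate 3 it passed at 0.27 (adjusted p = 0.0203, range over alternatives 0.0116 to 0.241). ANKRD37, a small ankyrin repeat gene, differed by 0.07 with an interval of -0.16 to 0.30.

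Most of the enzymes that run glycolysis step by step did not pass the test. Of 15 tested, 4 rose, 1 fell and 10 did not pass. That is 33.3% changed, beside 22.6% of all tested genes (11.5% risen and 11.1% fallen). The 10 had log2 differences of -0.05 to 0.26, with intervals that together span -0.21 to 0.51. They include GPI, which converts glucose 6-phosphate to fructose 6-phosphate, the phosphofructokinases PFKM and PFKP, the aldolase ALDOA, triose phosphate isomerase TPI1, GAPDH, the kinase PGK1, the mutase PGAM1 and the enolase ENO1. ENO1 was the 1 gene among them whose groups did not overlap, with a difference of 0.07 (adjusted p = 0.402).

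ENO2, the enolase form best known from neurons, showed the largest difference of the 36 genes. Its log2 signal was 8.10, 7.92 and 7.91 on the arrays labelled RNF43 siRNA, against 6.94, 6.62 and 7.27 on the control siRNA arrays. ENO2 rose 2.05-fold, a log2 difference of 1.03 (SE 0.19, adjusted p = 0.00371 in limma). ALDOC, the aldolase form of brain, read 9.78, 9.68 and 9.90 on the arrays labelled RNF43 siRNA, against 9.24, 9.49 and 9.44 on the control siRNA arrays. ALDOC rose 1.32-fold, a log2 difference of 0.40 (SE 0.10, adjusted p = 0.0176 in limma). Its call depended on single arrays and ended without RNF43 siRNA replicate 1 (adjusted p = 0.0518), RNF43 siRNA replicate 3 (adjusted p = 0.0529) or control siRNA replicate 1 (adjusted p = 0.0771, range over alternatives 0.00434 to 0.0771).

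Hexokinase opens the pathway by phosphorylating glucose, and HK1 is its widespread form. HK1 read 11.20, 11.21 and 10.93 on the arrays labelled RNF43 siRNA, against 10.86, 10.62 and 10.42 on the control siRNA arrays. The lowest of the arrays labelled RNF43 siRNA was only slightly above the highest control siRNA array. HK1 rose 1.39-fold, a log2 difference of 0.48 (SE 0.12, adjusted p = 0.0146 in limma). The call ended without RNF43 siRNA replicate 1 (adjusted p = 0.0589), without RNF43 siRNA replicate 2 (adjusted p = 0.0696) and with no intensity trend (adjusted p = 0.0613, range over alternatives 0.000114 to 0.0696). HK2, the hexokinase raised in many tumours, differed by 0.26 (adjusted p = 0.124) and passed without control siRNA replicate 2 (0.36, adjusted p = 0.0497, range over alternatives 0.00552 to 0.359).

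Pyruvate kinase closes the pathway. PKM, its form outside liver and red cells, read 10.73, 10.59 and 10.96 on the arrays labelled RNF43 siRNA, against 10.32, 10.27 and 10.47 on the control siRNA arrays. PKM rose 1.33-fold, a log2 difference of 0.41 (SE 0.10, adjusted p = 0.0164 in limma), and the groups did not overlap. The call ended without control siRNA replicate 1 (adjusted p = 0.0574), without control siRNA replicate 2 (adjusted p = 0.0641) and with no intensity trend (adjusted p = 0.0569, range over alternatives 0.000388 to 0.0641).

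Phosphofructokinase commits sugar to glycolysis, and PFKL is its liver form. It read 8.41, 8.17 and 7.79 on the arrays labelled RNF43 siRNA, against 8.77, 8.89 and 8.67 on the control siRNA arrays. PFKL fell 1.57-fold, a log2 difference of -0.65 (SE 0.16, adjusted p = 0.0136 in limma), with RNF43 siRNA replicate 3 the lowest. Without control siRNA replicate 2 the call ended (-0.60, adjusted p = 0.0540, range over alternatives 0.00178 to 0.0540). PFKM and PFKP, the muscle and platelet forms, differed by -0.02 and -0.05, with intervals of -0.18 to 0.15 and -0.21 to 0.11.

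The PFKFB enzymes make and break fructose 2,6-bisphosphate, the main activator of phosphofructokinase. PFKFB4, a form induced by low oxygen in many cells, read 9.89, 10.08 and 9.94 on the arrays labelled RNF43 siRNA, against 10.57, 10.57 and 10.33 on the control siRNA arrays. PFKFB4 fell 1.44-fold, a log2 difference of -0.52 (SE 0.10, adjusted p = 0.00331 in limma). When its probe sets were averaged, the difference was -1.31. PFKFB2 differed by 0.19 (adjusted p = 0.246) and PFKFB3 by -0.13 (adjusted p = 0.443), so neither passed.

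Neither lactate dehydrogenase gene passed the test. LDHA, the form that favours lactate, averaged 14.80 ± 0.13 on the arrays labelled RNF43 siRNA and 14.79 ± 0.01 on the control siRNA arrays (SD, n = 3 each). Its difference of 0.01 had an interval of -0.14 to 0.16. LDHB, the form of heart, differed by 0.04, with an interval of -0.11 to 0.19. Glucose uptake gave no call either. SLC2A1, the widespread transporter GLUT1, differed by 0.24 (adjusted p = 0.137) and passed without control siRNA replicate 3 (0.35, adjusted p = 0.0268, range over alternatives 0.00927 to 0.426). SLC2A3, the transporter GLUT3, was dim, and its interval of -1.08 to 0.91 left the direction undetermined.

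The PDK kinases hold back the entry of pyruvate into the mitochondria. PDK1, a HIF target, read 10.05, 10.24 and 10.17 on the arrays labelled RNF43 siRNA, against 10.44, 10.53 and 10.37 on the control siRNA arrays. PDK1 fell 1.23-fold, a log2 difference of -0.30 (SE 0.09, adjusted p = 0.0289 in limma), the smallest change among the 12. The call ended without RNF43 siRNA replicate 1 (adjusted p = 0.105), control siRNA replicate 1 (adjusted p = 0.0818) or control siRNA replicate 2 (adjusted p = 0.115), with each array centred on its median (adjusted p = 0.0552) and with no intensity trend (adjusted p = 0.0604). When its probe sets were averaged, a dim one under the filter included, the sign turned (0.33, adjusted p = 0.666, range over alternatives 0.00546 to 0.666). PDK3 differed by 0.26 (adjusted p = 0.241) and PDK4, a kinase raised by fasting, by -0.16 (adjusted p = 0.586).

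Other probe sets of the same genes gave a check within the arrays. The 36 genes had 89 probe sets, of which 75 were bright enough to test. In the fit over 22660 probe sets, of which 17.7% passed, 9 of the 75 rose and 7 fell. Of the 12 changed genes, 7 had another tested probe set, and each of these others had the sign of the first. For PFKFB4, VEGFA and BNIP3L another probe set passed too, and 0 passed in the opposite direction. HK1, ALDOC, ENO2, HIF1A and NDRG1 had no other tested probe set.

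The second PFKFB4 probe set read 4.81, 5.72 and 4.09 on the arrays labelled RNF43 siRNA, against 7.31, 7.27 and 6.35 on the control siRNA arrays. Its log2 difference was -2.11 (SE 0.46, limma adjusted p = 0.0132), and the values on the arrays labelled RNF43 siRNA lay below the filter of 5.83. The second BNIP3L probe set differed by 0.34 (adjusted p = 0.0357), less than the 0.77 of the first, and the second VEGFA probe set by -0.51 (adjusted p = 0.0412). In ALDOA, 1 of 3 probe sets rose by 0.24 (adjusted p = 0.0424), while the brightest differed by 0.03. In PGK1, the 5 other probe sets had the opposite sign to the brightest one, and none of the 6 passed in limma. BNIP3, TPI1, PFKFB2 and PDK3 also had tested probe sets of either sign, none past the threshold.

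**Figure D3:**
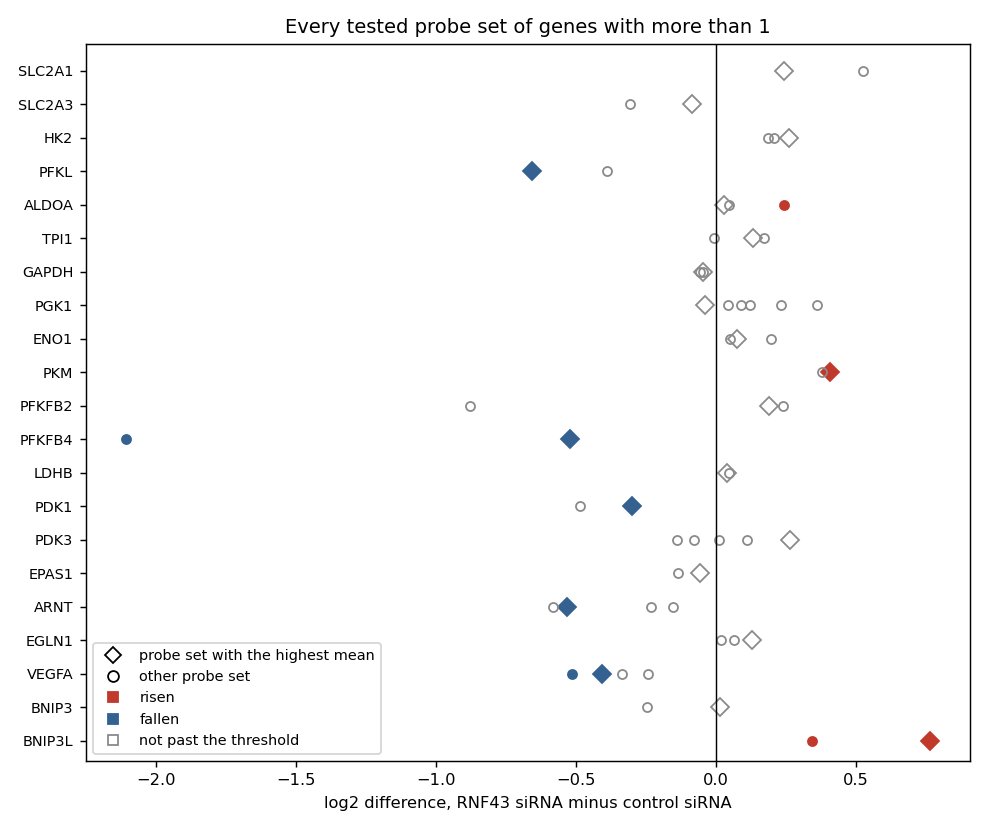
Log2 difference, RNF43 siRNA minus control siRNA, of every tested probe set for the genes with more than 1 (diamonds, the probe set with the highest mean; circles, the others). For PFKFB4, VEGFA and BNIP3L more than 1 probe set passed in the same direction.

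HIF binds DNA at a short core, ACGTG or GCGTG, so the stretch around the start site was read for the genes whose promoter is in the RefSeq table (GRCh38.p14), 250 bases before to 50 after the start. Of the 36 genes, 31 matched, with 54 windows. VEGFA, NDRG1, BNIP3L, PFKFB2 and SLC2A3 had no window, so their promoters were not read. Either core, on either strand, was in 64.8% of these windows, beside 48.4% of 35116 windows of all genes. By gene, 27 of 31 held a core in at least 1 window, beside 52.4% of all genes, and several of these genes have many windows. The core was present in 5 of 5 risen genes, 3 of 4 fallen genes and 19 of 22 genes that did not pass, so it was found among genes of either direction. By window the shares were 50% of 12 for risen genes, 60% of 5 for fallen genes and 70.3% of 37 for the others, beside the 48.4% of all windows. The E-box CACGTG, which contains ACGTG, was in 14.8% of the windows, beside 7.26% of all. ARNT, PGAM1, PDK4 and EGLN3 had no such letters in the window. Among the changed genes with a window, the 4 shown are those with the smallest p that hold a core, 2 risen and 2 fallen. The core is in capitals.
HIF1A, chr14:61695263-61695562, plus strand: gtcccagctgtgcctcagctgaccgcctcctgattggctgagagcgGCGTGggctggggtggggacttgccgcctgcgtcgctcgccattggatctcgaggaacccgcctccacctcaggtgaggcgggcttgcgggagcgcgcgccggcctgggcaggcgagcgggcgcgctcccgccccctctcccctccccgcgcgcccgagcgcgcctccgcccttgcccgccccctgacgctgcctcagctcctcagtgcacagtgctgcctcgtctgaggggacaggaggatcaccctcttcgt
ENO2, chr12:6914330-6914629, plus strand: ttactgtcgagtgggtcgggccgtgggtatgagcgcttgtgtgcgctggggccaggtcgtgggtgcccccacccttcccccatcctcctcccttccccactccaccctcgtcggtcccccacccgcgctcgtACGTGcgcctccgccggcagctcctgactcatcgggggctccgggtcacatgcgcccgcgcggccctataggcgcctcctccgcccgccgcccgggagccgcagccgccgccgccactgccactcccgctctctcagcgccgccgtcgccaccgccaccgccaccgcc
PFKFB4, chr3:48556754-48557053, minus strand: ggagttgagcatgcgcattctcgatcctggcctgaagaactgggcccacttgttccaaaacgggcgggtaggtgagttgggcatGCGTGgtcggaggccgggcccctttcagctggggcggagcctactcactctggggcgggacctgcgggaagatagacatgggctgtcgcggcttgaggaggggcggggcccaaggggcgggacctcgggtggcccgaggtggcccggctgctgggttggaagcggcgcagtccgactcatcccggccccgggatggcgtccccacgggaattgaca
PFKL, chr21:44299803-44300102, plus strand: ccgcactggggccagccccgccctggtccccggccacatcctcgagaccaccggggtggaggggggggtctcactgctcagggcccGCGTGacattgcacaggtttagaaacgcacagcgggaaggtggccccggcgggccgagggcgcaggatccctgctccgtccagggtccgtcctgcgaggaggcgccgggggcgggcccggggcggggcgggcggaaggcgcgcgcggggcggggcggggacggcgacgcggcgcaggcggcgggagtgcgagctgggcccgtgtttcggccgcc
HIF1A has 2 windows, and 1 of them, the window shown, holds a core. Each of the 4 windows shown holds 1 core. It starts at position -204 from the start site in HIF1A, -118 in ENO2, -166 in PFKFB4 and -164 in PFKL. ENO2 carries the ACGTG form and the other 3 carry GCGTG. A match describes the letters and is not a measured binding site.

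Related genes were read from 6 further lists of the same metabolism and response. Of 86 tested genes in them, each counted once, 12 rose and 16 fell in limma. That is 32.6% changed, beside 22.6% of all tested genes (11.5% risen and 11.1% fallen). Changed genes made up 50% of the gluconeogenesis list, 45.5% of glycogen and 34.2% of other targets. They made up 22.2% of pentose phosphate, 25% of pyruvate entry and 25% of HIF stability, near the share of all tested genes. Gluconeogenesis and liver glucose handling had 3 fallen and 0 risen genes among 6 tested, and 9 of its 15 matched genes lay under the filter. PCK2, the mitochondrial enzyme that makes phosphoenolpyruvate, fell 1.78-fold (-0.84, adjusted p = 0.00194). HKDC1, a hexokinase relative, fell by 0.34 on the log2 scale (adjusted p = 0.00567), and TIGAR, which lowers fructose 2,6-bisphosphate, fell by 0.29 (adjusted p = 0.0215). HKDC1 turned to 0.06 (adjusted p = 0.749) when its probe sets were averaged. The TIGAR call ended without RNF43 siRNA replicate 2 (adjusted p = 0.0899) or 3 (adjusted p = 0.0507), without control siRNA replicate 1 (adjusted p = 0.0673) or 2 (adjusted p = 0.0924), with each array centred on its median (adjusted p = 0.0758) and with no intensity trend (adjusted p = 0.0645).

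Of 11 tested glycogen genes, 2 rose and 3 fell, and 1 rose without RNF43 siRNA replicate 1 or 2 or without control siRNA replicate 1 or 2. PGM1, which feeds glucose phosphate into glycogen, fell by 0.47 on the log2 scale (adjusted p = 0.000829), and GYS1, the glycogen synthase outside liver, fell by 0.58 (adjusted p = 0.00134). PPP1R3B and PPP1R3D, subunits that direct a phosphatase to glycogen, went opposite ways, at -0.75 (adjusted p = 0.00118) and 0.55 (adjusted p = 0.00226). When their probe sets were averaged, neither passed (-0.24, adjusted p = 0.625, and 0.28, adjusted p = 0.133). In the pentose phosphate list 2 of 9 rose and 0 fell. They were PRPS2, which makes the nucleotide precursor PRPP (0.45, adjusted p = 0.00154), and the epimerase RPE (0.31, adjusted p = 0.0133). RPE did not pass without control siRNA replicate 1 (adjusted p = 0.0546) or 2 (adjusted p = 0.0595), and when its probe sets were averaged it was 0.11 (adjusted p = 0.822).

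Of 12 tested genes in the list for pyruvate entry into mitochondria, 3 rose and 0 fell. Of the 3, only DLAT acts in mitochondria. DLAT, the acetyltransferase of the pyruvate dehydrogenase complex, rose 1.41-fold (0.49, adjusted p = 0.00203). EMB and BSG, the partner proteins that bring lactate and pyruvate carriers to the cell surface, rose by 0.47 (adjusted p = 0.00259) and 0.29 (adjusted p = 0.0164). EMB did not pass when its probe sets were averaged (0.45, adjusted p = 0.0777). BSG did not pass without RNF43 siRNA replicate 1 (adjusted p = 0.0669) or 2 (adjusted p = 0.0561), or without control siRNA replicate 2 (adjusted p = 0.0568).

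Genes that set HIF stability and cofactors gave 2 risen and 1 fallen among 12 tested, and 2 fallen without control siRNA replicate 3. CITED2, a HIF target that competes with HIF alpha subunits for the coactivators EP300 and CREBBP, rose 1.80-fold (0.85, adjusted p = 9.6e-05). HIF1AN, the asparagine hydroxylase that blocks that same contact, rose by 0.52 (adjusted p = 0.0033), though not when its probe sets were averaged (0.32, adjusted p = 0.0664). OS9 fell by 0.30 on the log2 scale (adjusted p = 0.0231). Its call ended without RNF43 siRNA replicate 1 (adjusted p = 0.0835) or 2 (adjusted p = 0.0808), without control siRNA replicate 1 (adjusted p = 0.0912) or 2 (adjusted p = 0.0803), and when its probe sets were averaged (adjusted p = 0.177).

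Of 38 tested other hypoxia-response targets, 3 rose and 10 fell, with a median log2 difference of -0.09. Without control siRNA replicate 2 the counts were 5 risen and 7 fallen, and with each array centred on its median 5 risen and 9 fallen. P4HA2 and P4HB, subunits of the enzyme that hydroxylates proline in collagen, fell 1.89-fold (-0.92, adjusted p = 1.4e-05) and 1.51-fold (-0.60, adjusted p = 7.1e-05). When its probe sets were averaged, P4HA2 was -0.57 (adjusted p = 0.0685). CA12, a surface carbonic anhydrase, fell by 0.54 (adjusted p = 0.000694), and MXI1, an antagonist of MYC, rose 1.71-fold (0.78, adjusted p = 0.000383). The summed fibroblast marker signal was also lower on the arrays labelled RNF43 siRNA, and its part in the values of P4HA2 and P4HB was not tested.

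**Figure D4:**
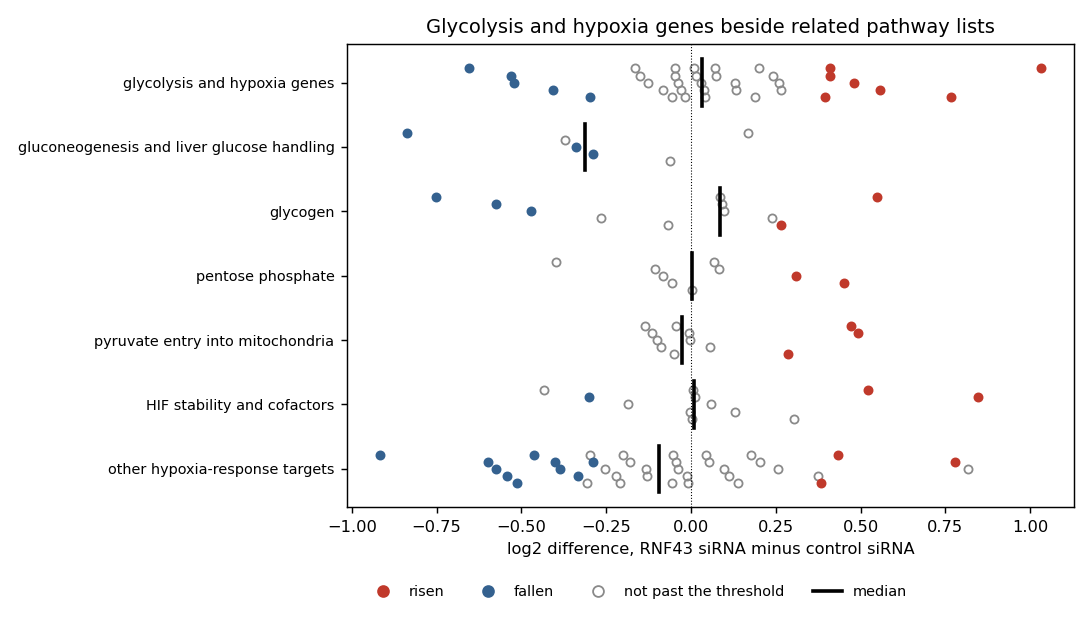
Log2 difference, RNF43 siRNA minus control siRNA, of every tested gene in the glycolysis and hypoxia list and in the 6 related lists (red risen, blue fallen, open circles not past the threshold, black bars the medians). Risen and fallen genes occur in the glycolysis and hypoxia, glycogen, HIF stability and other target lists, and the median lies lowest for the 6 gluconeogenesis genes, at -0.31.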

How the data were processed

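Total RNA (6 ug per sample) was measured on HG-U133 Plus 2.0 arrays, 3 for each siRNA. The deposited values are log2 signals that the authors made with MAS5, per the submitters' processing notes. The version is not given in the sources used here. MAS5 scales each array, which hides a shift of all transcripts, and its subtraction of mismatch signal adds noise to dim probe sets. No normalization was added. Array medians were 5.89 to 6.02, and no value of the 36 genes was at the floor of 0. For arrays the number of arrays limits the precision.

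Groups came from the titles. Each gene was read by its brightest probe set naming 1 gene and was tested if that mean was in the upper 50% (log2 above 5.83). limma 3.58.1 in R 4.3.3 (lmFit, eBayes with intensity trend) compared the groups, two-sided, with Benjamini-Hochberg adjustment over 11853 genes and a threshold of 0.05. The fit was tested on simulated data, with the pass mark for recovery set after the first result was seen. The genes, lists and tests were chosen with earlier results of these data known. All listed genes are named. In related lists, up to 4 changed genes with the smallest p are named. Promoters are printed for the 4 changed genes with the smallest p among those with a window that holds a core. Marker lists were those for liver, fibroblast, endothelial and blood cells. Alternatives covered normalization, added signal, filter, variance model, probe set choice, replicate block and arrays left out.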

Additional observations from a re-analysis of the deposited data

How the results depend on the processing

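Across 18 alternatives, 7 of the 12 changed genes (ENO2, BNIP3L, HIF1A, NDRG1, ARNT, PFKFB4 and VEGFA) kept their call in each alternative that gave them a value, and 5 (HK1, PFKL, ALDOC, PKM and PDK1) lost it in some. When the probe sets of a gene were averaged, the PDK1 difference turned to 0.33 and the HKDC1 difference to 0.064. That setting gave 3 fallen genes and 1587 changed genes of all tested, against 2684, and it tested fewer genes. Leaving out probe sets ending in _x_at and _s_at left 22 of the 36 genes to test, with 3 fallen, against 5. The median difference over those 22 was 0.18, against 0.03 over all 36. How far the fewer genes account for these shifts was not tested. Leaving out 1 array at a time gave 9 to 14 changed genes of the 36, with 5 to 9 risen and 3 to 5 fallen, a median difference of 0.0079 to 0.054, and 1741 to 2656 changed genes of all tested. The low values were 3 fallen without control siRNA replicate 2 and 1741 without RNF43 siRNA replicate 2. Leaving out both arrays numbered 3 ended the call of RNF43 itself (0.48, adjusted p = 0.0537, range over alternatives 0.00585 to 0.0537).

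The groups share replicate numbers. Arrays of one number had deviations correlated at 0.16, 0.08 and 0.27. The rule asked for all 3 above 0.1, so the main fit took no pairs. Arrays of unlike numbers ranged from -0.21 to 0.086, and control siRNA replicate 2 correlated best with RNF43 siRNA replicate 1 (0.086). Whether the numbers pair the arrays was thus not settled. With a replicate block, 15 of the 36 genes changed, 10 risen and 5 fallen, and 3908 of all tested genes. The 3 genes that gained a call under the block were HK2 (0.26, adjusted p = 0.00552), SLC2A1 (0.24, adjusted p = 0.00927) and ADM (0.20, adjusted p = 0.0116). Of the other hypoxia-response targets, 7 rose and 15 fell under the block. With array weights SLC2A1 and ADM passed too (adjusted p = 0.0442 and 0.0250). With 3 arrays per group, a gene that did not pass is not shown to be level, and dim genes such as SLC2A3 and EGLN3 had intervals too wide to give a direction.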
